A study of Mus musculus with 6 samples.

Results

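Type I interferon-stimulated genes are the genes that a cell switches on when interferon alpha or beta reaches its surface. The set described here holds 35 of them, taken by gene symbol from a list of interferon-stimulated effector genes, and all 35 have a row among the 55421 genes of the deposited table. Their transcripts were measured by messenger RNA sequencing in mouse macrophages grown from bone marrow with the growth factor M-CSF. In the treated group, 3 samples received fresh medium mixed with an equal volume of medium in which LL-2 cells had grown (50% conditioned medium). LL-2 is a line of Lewis lung carcinoma, a mouse tumour. The other 3 samples stayed untreated in RPMI-1640. The RPMI-1640 of both groups carried 10% serum, antibiotics and 20 ng/mL M-CSF, all 6 samples were labelled wild type, and all were lysed after 24 h. The labels name neither strain, sex nor age, and do not say how many animals gave the marrow, so every p-value rests on sample-to-sample spread that may be only technical. No medium conditioned by another cell type was analysed here, and the conditioned-medium samples also held less fresh medium.

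Interferons alpha and beta bind the receptor chains IFNAR1 and IFNAR2. The kinases JAK1 and TYK2 then phosphorylate STAT2, which joins IRF9 in the factor ISGF3. That factor binds the interferon-stimulated response element in the promoters of many genes, a large part of which block a step of virus replication. Macrophages in culture are known to keep a low level of this programme running through small amounts of interferon beta of their own.

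Nearly the whole set was lower in conditioned medium. Of 34 tested genes, 32 fell and 0 rose at an adjusted p under 0.05 (edgeR's quasi-likelihood test with Benjamini-Hochberg adjustment over 13853 genes), where 15.2% of all tested genes fell (2112) and 12.6% rose (1749). Without scaling beyond the library total these were 1710 and 2656 genes, and the counts of the set were 32 and 1. The 0 was also 0 by DESeq2 and 1 at an unadjusted p under 0.05 (Ifi27). The median log2 fold change, conditioned medium minus untreated, was -1.12 over the set and 0.013 over all tested genes. Most affected were Ifit3b, Ifit3, Ifit2, Oas3 and Rsad2, which were 3.31-fold to 4.16-fold lower, and least affected among those that fell was Samhd1, 1.31-fold lower. Ifi27 and Dtx3l did not pass the test, and Ifi44l had 0 counts in each library. With the replicate number as a block in the fit, Dtx3l was called lower and Ifi27 higher. The counts of the set were then 33 and 1, where 19.3% of all tested genes fell and 17% rose. Levels are given as CPM, a gene's counts relative to its library's total after TMM scaling. For the set as a whole, the summed level was 2703, 2435 and 3696 CPM in the conditioned-medium samples and 4958, 5612 and 6659 CPM in the untreated samples. The highest conditioned-medium sample thus lay below the lowest untreated sample. In bulk RNA, fewer cells of one type and less RNA per cell cannot be told apart.

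**Figure D1:**
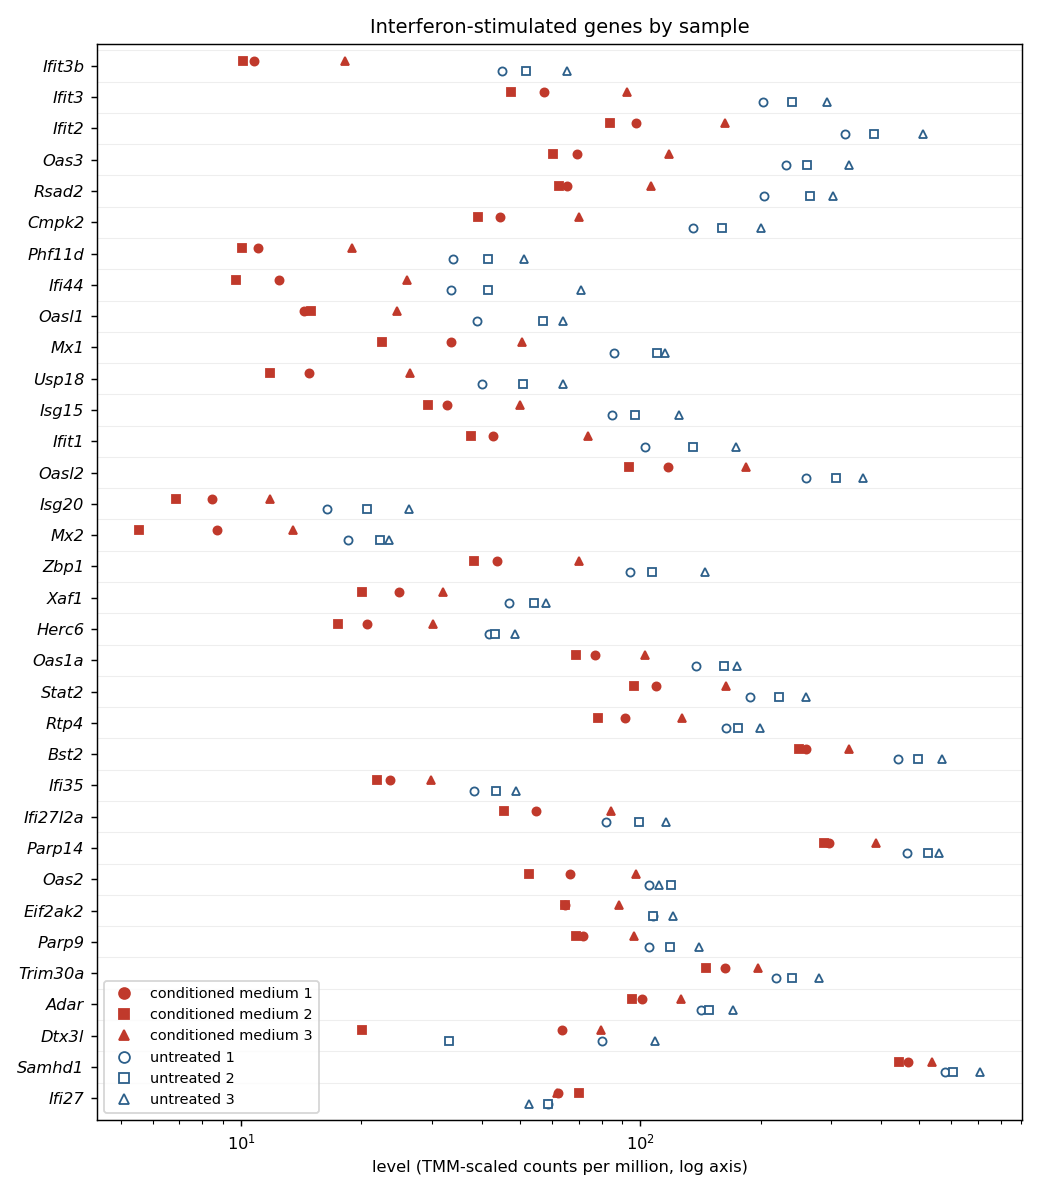
Level of the 34 tested interferon-stimulated genes in each sample, in TMM-scaled CPM on a log axis, with filled symbols for conditioned medium, open symbols for untreated and 1 symbol shape per sample number. Genes run from the largest fall at the top (Ifit3b, 10.1 to 18.2 CPM in conditioned medium and 45.1 to 65.3 CPM untreated) to Ifi27 at the bottom, and samples numbered 3 lie to the right of their group in most rows.

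Libraries held 28447825 to 30040682 counts in conditioned medium and 24179548 to 25916709 counts untreated. A gene with 0 counts in a library may still have had up to 3 counts, that is 0.0999 to 0.124 CPM, a limit that covers counting error only. Along the first principal component (54.2% of the variance) the libraries split by group, and along the second (17.9%) both samples numbered 3 lay away from the rest. Macrophage markers were abundant in every sample. Of 8 such genes 3 fell and 3 rose (4 with the replicate number as a block in the fit), and their summed level was 57300 to 61900 CPM in conditioned medium and 51000 to 60300 CPM untreated.

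The core letters of the response element were found in the promoter windows of some of these genes and not in those of others. Its core, GAAA followed by any 2 bases and GAAA again (on the other strand TTTC, any 2 bases, TTTC; matches may overlap), was searched on both strands in RefSeq promoter windows on GRCm38.p6, from 250 bases before to 50 bases after each annotated start. Of 25 genes of the set with a window, 11 held the core (44%), against 4.06% of 10060 tested genes and 3.99% of 27025 genes with a window. The 11 genes with a match had a median log2 fold change of -1.42 and the 13 tested genes with a window and no match one of -1.22, so both kinds fell. Among the genes without a match were Ifit2, Cmpk2, Phf11d, Ifi44 and Oasl1, whose falls lay between 1.57 and 1.83 on the log2 scale. A match in this window is a description of letters and not of binding. The lack of a match does not show that the element is absent, since only this core and this window were searched. The 200 bases upstream of the annotated start follow for 6 genes picked because they hold the core, with falls from the largest of the set to a moderate one, 5′ to 3′ on the strand of the gene, with the matched letters in capitals.
Ifit3b, chr19:34607757-34607956, plus strand: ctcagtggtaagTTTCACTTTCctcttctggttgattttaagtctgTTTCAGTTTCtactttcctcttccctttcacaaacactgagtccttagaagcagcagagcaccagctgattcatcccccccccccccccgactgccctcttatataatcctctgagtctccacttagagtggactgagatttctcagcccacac
Ifit3, chr19:34583329-34583528, plus strand: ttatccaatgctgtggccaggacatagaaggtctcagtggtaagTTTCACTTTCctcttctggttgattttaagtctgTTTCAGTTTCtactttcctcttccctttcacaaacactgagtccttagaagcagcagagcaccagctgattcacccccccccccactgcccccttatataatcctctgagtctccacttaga
Rsad2, chr12:26456453-26456652, minus strand: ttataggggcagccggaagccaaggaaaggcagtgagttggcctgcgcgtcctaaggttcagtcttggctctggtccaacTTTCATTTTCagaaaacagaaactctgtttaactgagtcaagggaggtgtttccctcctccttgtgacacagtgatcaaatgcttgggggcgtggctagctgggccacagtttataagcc
Oas3, chr5:120777660-120777859, minus strand: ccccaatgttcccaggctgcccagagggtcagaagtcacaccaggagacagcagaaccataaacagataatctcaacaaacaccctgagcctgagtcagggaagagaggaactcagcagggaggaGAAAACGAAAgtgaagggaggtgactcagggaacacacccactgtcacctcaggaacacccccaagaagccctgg
Isg15, chr4:156200819-156201018, minus strand: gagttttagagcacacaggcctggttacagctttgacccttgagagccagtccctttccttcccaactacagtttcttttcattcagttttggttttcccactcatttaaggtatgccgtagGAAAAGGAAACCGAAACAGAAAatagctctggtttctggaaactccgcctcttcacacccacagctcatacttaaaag
Bst2, chr8:71537473-71537672, minus strand: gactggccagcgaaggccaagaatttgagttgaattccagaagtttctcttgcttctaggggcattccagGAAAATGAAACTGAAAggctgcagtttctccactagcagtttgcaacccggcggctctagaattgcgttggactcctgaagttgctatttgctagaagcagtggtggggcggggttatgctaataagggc

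Ifit3 and Ifit3b carry the same pair of cores, at 156 and 122 bases upstream of the annotated start of Ifit3 and at 188 and 154 bases upstream of that of Ifit3b. Their promoter windows were identical at 258 of 260 aligned bases, with 14 gap bases. In Isg15, 3 overlapping cores form the capitals that begin 78 bases upstream, and in Bst2 a pair of overlapping cores begins 130 bases upstream.

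The Ifit genes encode proteins that bind RNA, of which Ifit1 is known to hold foreign RNA that lacks a methylated cap. All 4 of the set fell, and they lie in 1 cluster on chromosome 19 with gaps of 7.11, 19.2 and 27.5 kb between neighbours. Ifit3b (ENSMUSG00000062488, GRCm38 chromosome 19, 34607970 to 34613401) stood at 10.8, 10.1 and 18.2 CPM in the conditioned-medium samples and at 45.1, 51.7 and 65.3 CPM in the untreated samples. No conditioned-medium sample came near the untreated ones, and the log2 fold change was -2.06 (SE 0.21, adjusted p = 0.000115), which placed it 45th from the most lowered of the 13853 tested genes. Ifit3 stood at 57.3, 47.3 and 92.3 CPM in conditioned medium and at 203, 240.3 and 293 CPM untreated (log2 fold change -1.90, SE 0.22). Ifit2 stood at 97.4, 84.1 and 163 CPM in conditioned medium and at 326, 384 and 512 CPM untreated (log2 fold change -1.83, SE 0.24). These 3 genes lost about as much as each other. Ifit1 stood at 42.6, 37.6 and 74.1 CPM in conditioned medium and at 103, 135 and 174 CPM untreated, a smaller fall of 1.42 on the log2 scale (SE 0.25, adjusted p = 0.00268). Each of these 4 genes was highest in the samples numbered 3 of both groups. Ifit3 and Ifit3b transcripts were 98.0% identical over 1697 aligned bases, and 31.7% of the 100-base windows of Ifit3 occur unchanged in Ifit3b, so how their reads were divided is uncertain.

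The ISG15 system attaches the small ubiquitin-like protein ISG15 to other proteins. Isg15 itself stood at 32.9, 29.3 and 50.1 CPM in conditioned medium and at 84.8, 97.1 and 125 CPM untreated, a fall of 1.45 on the log2 scale (SE 0.20, adjusted p = 0.000576). Usp18, whose product removes ISG15 and also restrains the interferon receptor, stood at 14.8, 11.8 and 26.5 CPM in conditioned medium and at 40.1, 50.7 and 63.9 CPM untreated. Its fall of 1.55 on the log2 scale (SE 0.27, adjusted p = 0.00222) was close to that of Isg15. Herc6, the main ISG15 ligase in mice, ranged from 17.5 to 30.3 CPM in conditioned medium and from 41.8 to 48.5 CPM untreated (log2 fold change -0.96). The steps between them fell as well. Ube2l6, the conjugating enzyme, fell by 1.26 on the log2 scale (adjusted p = 0.00104), and Uba7, the activating enzyme, by 0.41 with overlapping groups (adjusted p = 0.0479). In all, 5 of 5 genes of this system were lower, where 15.2% of all tested genes were. Isg15, Usp18 and Herc6 are 3 of these 5 and are already counted in the set.

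Many members of the oligoadenylate synthetase family sense double-stranded RNA and make short adenylate chains that act as a signal within the cell. All 5 of the set fell, but not evenly. Oas3 stood at 69.4, 60.4 and 118 CPM in conditioned medium and at 231, 262 and 334 CPM untreated (log2 fold change -1.74, SE 0.23). Oasl1, which in mice restrains the translation of Irf7, stood at 14.4, 15.0 and 24.6 CPM in conditioned medium and at 39.0, 56.9 and 63.8 CPM untreated (log2 fold change -1.57, SE 0.22). Oasl2 stood at 117, 93.7 and 184 CPM in conditioned medium and at 259, 309 and 362 CPM untreated (log2 fold change -1.24, SE 0.22). Oas1a ranged from 69.2 to 102 CPM in conditioned medium and from 138 to 175 CPM untreated (log2 fold change -0.93). Oas2 lies 3.24 kb from Oas3 and fell by 0.63 on the log2 scale (SE 0.18, adjusted p = 0.0269). Its samples stood at 66.7, 52.7 and 97.4 CPM in conditioned medium and at 105, 119.6 and 111 CPM untreated, so that the highest conditioned-medium sample nearly met the lowest untreated one. The Oas2 call was lost by DESeq2 (adjusted p = 0.0670) and without any 1 library other than conditioned-medium replicate 3 (adjusted p = 0.0506 to 0.0960). Oas1a shares 40.1% of its 100-base windows with Oas1g and is therefore uncertain.

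Mx proteins are dynamin-like GTPases, and Mx1 is known to be defective in many laboratory strains. Mx1 stood at 33.6, 22.6 and 50.5 CPM in conditioned medium and at 85.9, 110.3 and 115 CPM untreated, a fall of 1.55 on the log2 scale (SE 0.24, adjusted p = 0.00111). Mx2, annotated in GENCODE M21 as a polymorphic pseudogene, ranged from 5.55 to 13.5 CPM in conditioned medium and from 18.5 to 23.4 CPM untreated (log2 fold change -1.22).

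The 7 enzymes and sensors that act on nucleotides and nucleic acids all fell, by 1.72 to 0.39 on the log2 scale. Rsad2 encodes viperin, which makes a chain-terminating nucleotide, and Cmpk2 encodes a mitochondrial nucleotide kinase that supplies it. They lie 12.8 kb apart on chromosome 12 in divergent orientation and fell alike. Rsad2 stood at 65.4, 62.4 and 106 CPM in conditioned medium and at 204, 266 and 303 CPM untreated (log2 fold change -1.72, SE 0.21). Cmpk2 stood at 44.6, 39.2 and 70.3 CPM in conditioned medium and at 135, 160.45 and 200.5 CPM untreated (log2 fold change -1.69, SE 0.21). Both were about 3-fold lower with no overlap between groups. Isg20, an exonuclease gene, ranged from 6.86 to 11.8 CPM in conditioned medium and from 16.4 to 26.3 CPM untreated (log2 fold change -1.22). Zbp1, whose product senses Z-form nucleic acids and can start necroptosis, ranged from 38.4 to 70.0 CPM in conditioned medium and from 94.2 to 145 CPM untreated (-1.19). The last 3 genes of this role had small falls. They encode enzymes that cells also keep at a steady level without interferon, and any link to the size of the fall was not tested. Eif2ak2, encoding the translation-halting kinase PKR, had a log2 fold change of -0.62. Adar, the RNA editing enzyme, stood at 101, 95.03 and 126 CPM in conditioned medium and at 142, 148 and 171 CPM untreated, which is a fall of 0.52 on the log2 scale (SE 0.11, adjusted p = 0.00574). It overlaps Chrnb2 on the other strand by 1365 exonic bases, a gene with 518 counts over all libraries, against 20882 for Adar. Samhd1, which degrades deoxynucleotides, stood at 467, 446 and 538 CPM in conditioned medium and at 580.3, 608 and 711 CPM untreated. It fell by 0.39 on the log2 scale (SE 0.09, adjusted p = 0.00999).

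**Figure D2:**
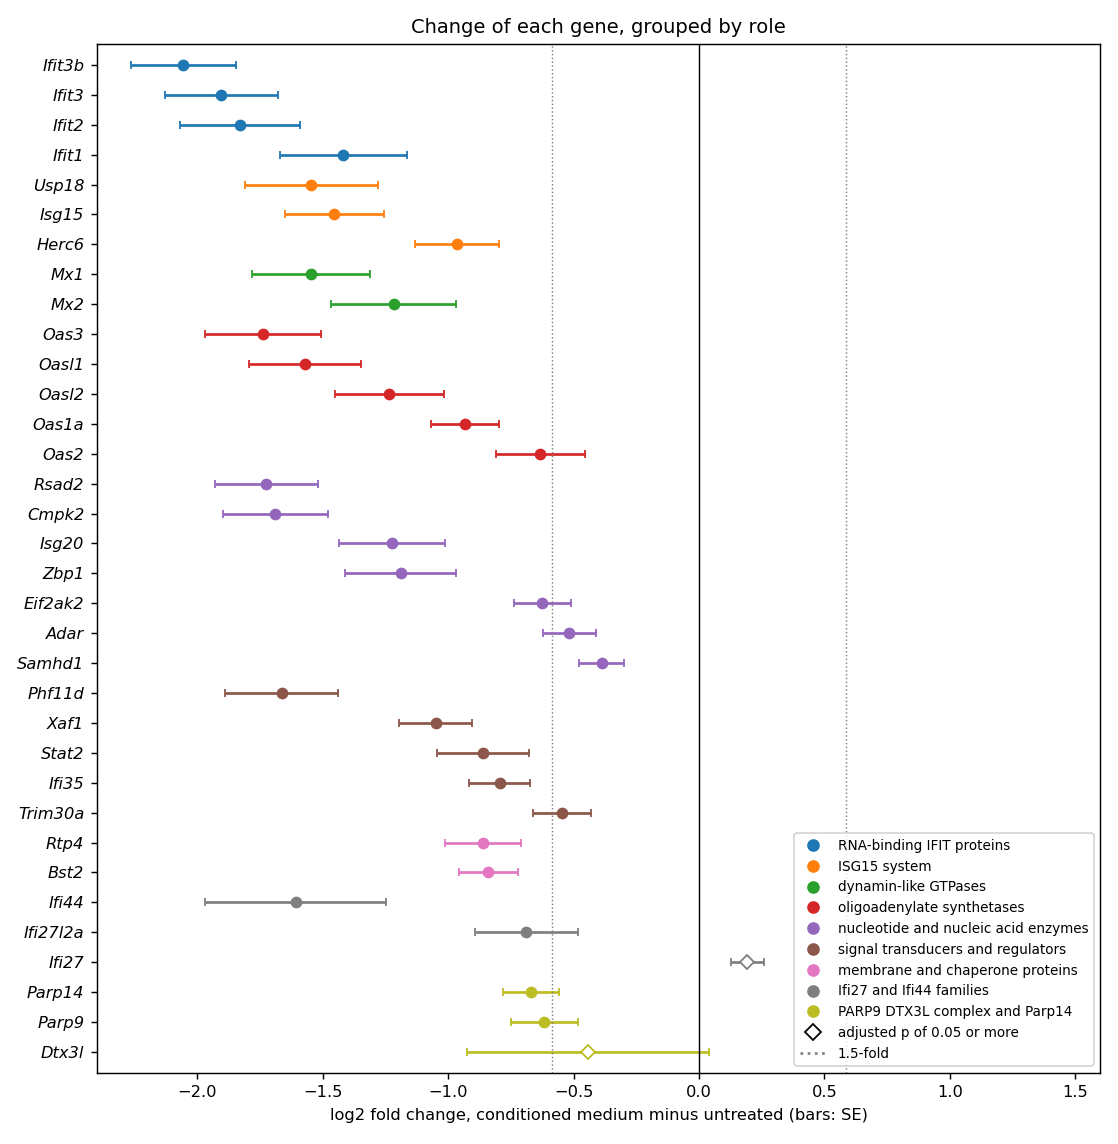
Log2 fold change (conditioned medium minus untreated) of each tested gene, coloured by role, with dotted lines at 1.5-fold. Bars are standard errors from the model with the group alone, without the replicate block. The 4 Ifit genes lie at the top between -2.06 and -1.42, and the open diamonds mark Ifi27 (0.19) and Dtx3l (-0.44), which did not pass the test.

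Of the 5 signal transducers and regulators, all fell. Stat2, a subunit of ISGF3, ranged from 96.2 to 164 CPM in conditioned medium and from 188 to 260.2 CPM untreated (log2 fold change -0.86). Phf11d, which encodes a PHD finger protein, stood at 11.0, 10.0 and 19.0 CPM in conditioned medium and at 33.9, 41.6 and 51.2 CPM untreated (log2 fold change -1.66, SE 0.23, adjusted p = 0.000593). Its paralogs Phf11a and Phf11b fell by 1.45 and 1.39 on the log2 scale, whereas Phf11c overlapped between groups and had a log2 fold change of -0.53 (adjusted p = 0.173). Xaf1, Ifi35 and Trim30a had log2 fold changes of -1.05, -0.80 and -0.55. Xaf1 is an antagonist of the apoptosis inhibitor XIAP, Ifi35 is a partner of Nmi, and Trim30a is a ubiquitin ligase of the TRIM family.

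Bst2, encoding tetherin, which holds budding virus at the membrane, was the most abundant transcript of the set per length. It averaged 311 ± 50.7 RPKM in conditioned medium and 557 ± 70.0 RPKM untreated (SD, n = 3 each; RPKM is a per-length scale computed here from the TMM-scaled values), a log2 fold change of -0.84. Rtp4, a chaperone gene of membrane receptors, had a log2 fold change of -0.86. On the same scale Ifi27l2a averaged 133 ± 44.2 RPKM in conditioned medium and 214 ± 36.9 RPKM untreated, ahead of Isg15 and Ifit3 untreated. Across the 34 tested genes the untreated level (log2 RPKM) and the log2 fold change had a Pearson r of 0.036 and a Spearman rho of -0.0133. These points share all 6 libraries, so the values only describe this set.

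The Parp9, Dtx3l and Parp14 genes lie together on chromosome 16 and encode a complex and a related enzyme that transfer ADP-ribose. Parp14 ranged from 289 to 389 CPM in conditioned medium and from 464 to 561 CPM untreated (log2 fold change -0.67). Parp9 ranged from 69.2 to 96.3 CPM in conditioned medium and from 105 to 140.0 CPM untreated (-0.62). Dtx3l, the partner of Parp9, behaved differently between samples. It stood at 63.8, 20.1 and 79.8 CPM in conditioned medium and at 80.2, 33.1 and 109 CPM untreated, so that both samples numbered 2 were far below the others and the groups overlapped. Its log2 fold change was -0.44 (SE 0.48, adjusted p = 0.546), and with the replicate number as a block it was -0.47 (adjusted p = 1.49e-05). It was the only gene of the set for which both samples of a number lay more than 1.5-fold below, or above, all 4 other samples. Of 11871 genes with a mean of at least 1 CPM, 6 had both samples numbered 2 that low, 6 those numbered 1 and 14 those numbered 3. Both samples were that high for 3 genes with number 2, 24 with number 1 and 17 with number 3. The fold was chosen after the Dtx3l values were seen. Dtx3l and Parp9 share 458 exonic bases on opposite strands, and whether the counting kept strand is not given in the sources used here.

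Ifi27 and Ifi27l2a encode small hydrophobic proteins and lie 1.93 kb apart on chromosome 12. Ifi27 was the one tested gene of the set with a positive change. It stood at 62.4, 70.2 and 62.0 CPM in conditioned medium and at 58.8, 58.8 and 52.7 CPM untreated. The groups did not overlap, as for 21.2% of all tested genes in that direction, and samples of each number differed the same way, as for 30.4%. The log2 fold change of 0.19 (SE 0.07) had an adjusted p of 0.0554, and of 0.00593 with the replicate block. Ifi27l2a stood at 54.9, 45.4 and 84.6 CPM in conditioned medium and at 82.0, 99.4 and 116 CPM untreated, with overlapping groups. Its fall of 0.69 on the log2 scale (SE 0.20, adjusted p = 0.0332) was lost by DESeq2 (adjusted p = 0.0902) and without conditioned-medium replicate 1 or 2 or untreated replicate 2 or 3 (adjusted p = 0.0873 to 0.115). Ifi44, on chromosome 3, stood at 12.5, 9.72 and 26.0 CPM in conditioned medium and at 33.5, 41.4 and 71.2 CPM untreated. It fell by 1.61 on the log2 scale (SE 0.36, adjusted p = 0.00924) and, Dtx3l apart, varied most between samples, with a coefficient of variation of 54.2% in conditioned medium and 40.8% untreated. Its neighbour Ifi44l, 8.78 kb away, had no counts.

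For a change beyond 1.5-fold, edgeR's glmTreat called 13 of the 34 tested genes lower, against 2.25% of all tested genes. They were the 4 Ifit genes, Isg15, Usp18, Mx1, Oas3, Oasl1, Rsad2, Cmpk2, Phf11d and Xaf1. That count depends on single samples, since it was 28 without conditioned-medium replicate 3 and 27 without both samples numbered 3. It was 6 when conditioned-medium replicate 1 was left out and 8 when untreated replicate 2 was. In the fit with the replicate block it was 24, where 3.57% of all tested genes were called. The count of 32 genes lower at any size moved less, from 30 to 33 over the settings tried, and was 32 without both samples numbered 3. The groups did not overlap for 31 lower genes of the set, against 21.6% of all tested genes.

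Within each group the set rose and fell together from sample to sample. Conditioned-medium replicate 3 was the highest sample of its group for 33 of 34 genes, and untreated replicate 3 for 32. Lowest were conditioned-medium replicate 2, for 31 genes, and untreated replicate 1, also for 31. Over the 33 genes with a negative change, replicate 3 was above replicate 1 in each group for all 33, by a median of 0.587 on the log2 scale in conditioned medium and 0.464 untreated, where the median of all tested genes was -0.00114 and 0.00385. Ifi44 had the widest gap, 2.04-fold in conditioned medium and 2.11-fold untreated.

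Samples of the same number were compared directly, as log2 ratios of CPM + 0.5. In each of the 3 comparisons 33 of 34 genes were lower in conditioned medium, and the same 33 were lower in all 3, where 29.9% of all tested genes were lower in all 3. The median log2 ratio of the set was -0.956 for samples numbered 1, -1.44 for samples numbered 2 and -0.813 for samples numbered 3. Samples numbered 2 gave the largest fall for 32 of the 33 genes, a count for which no share of all tested genes is given. It is not a fully separate result, since conditioned-medium replicate 2 was the lowest of its group for 31 of the 34 genes. A description that shares no library between its axes set the ratio of untreated replicate 3 to untreated replicate 1 against the ratio of the samples numbered 2. Over the 33 genes the Pearson r was -0.625 and the Spearman rho -0.642. Genes that differed more between those untreated samples thus had the larger falls in the other samples, and the genes are not independent of each other.

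**Figure D3:**
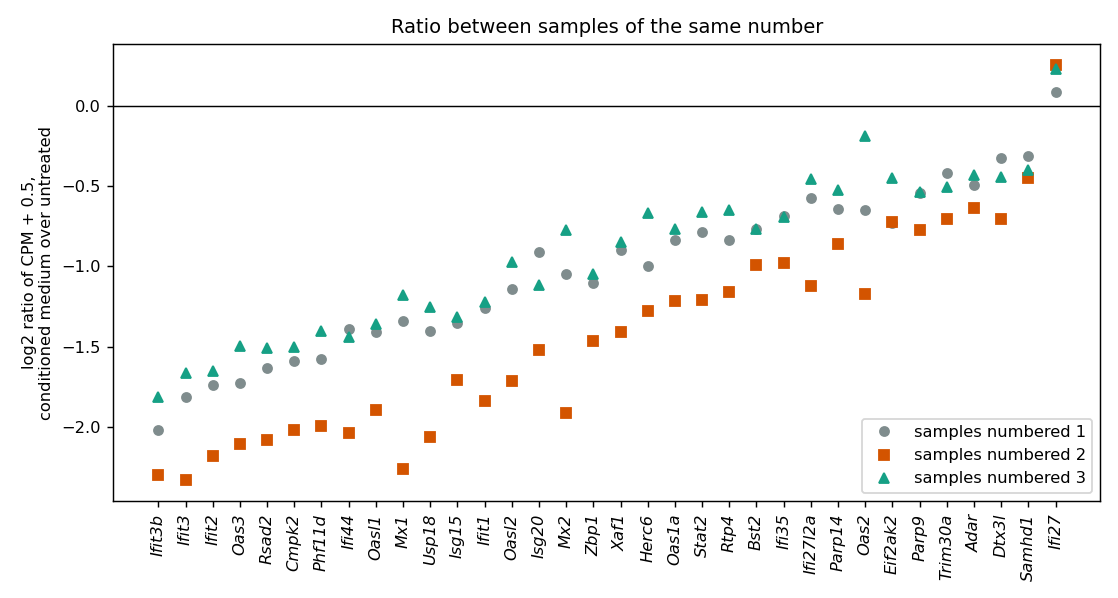
Log2 ratio of conditioned medium over untreated (CPM + 0.5) between samples of the same number for each tested gene, with genes ordered by their log2 fold change. Samples numbered 2 (squares) lie lowest for 32 of the 33 genes with a negative change, and Ifi27 lies above 0 in each comparison.

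Above the set in the pathway, the ligand genes were close to absent. Of 21 interferon genes of all types, 16 had 0 counts in all 6 libraries and none reached the level needed for a test. Ifnb1, encoding interferon beta, had 0, 0 and 2 counts in the conditioned-medium libraries and 4, 0 and 6 counts in the untreated libraries, which at this depth allows no comparison. Of 17 receptor and signalling genes, 5 fell and 6 rose, with a median log2 fold change of 0.025. Ifnar1 had a log2 fold change of -0.064 (adjusted p = 0.298), Ifnar2 rose by 0.15 (adjusted p = 0.0329) and Jak1 rose by 0.21 (adjusted p = 0.00315). Irf9, which encodes the DNA-binding subunit of ISGF3, fell by 0.22 (adjusted p = 0.0251). Socs1 and Socs3 encode feedback inhibitors of cytokine receptors. Socs1 stood at 2.21 ± 0.777 CPM in conditioned medium and 4.66 ± 0.897 CPM untreated (log2 fold change -1.07, adjusted p = 0.0119). Socs3 stood at 53.6 ± 5.82 CPM in conditioned medium and 16.1 ± 3.34 CPM untreated (log2 fold change 1.73, adjusted p = 1.97e-05).

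Among 17 genes that induce interferon, 9 fell and 2 rose (3 with the replicate block), with a median log2 fold change of -0.24. The largest fall was that of Irf7, the interferon-induced factor that amplifies interferon transcription. Its samples stood at 99.5, 89.5 and 150.0 CPM in conditioned medium and at 282, 359 and 441 CPM untreated (log2 fold change -1.67, SE 0.20, adjusted p = 0.000303), the same order of samples as in the set. Dhx58 and Ifih1, RNA sensors of the RIG-I family, fell by 0.96 and 0.88. Of 62 other tested interferon-stimulated genes, 46 fell and 4 rose (49 and 6 with the replicate block), with a median log2 fold change of -0.65. Apol9b, Ccl5 and Cxcl10 had the largest falls, of 2.08, 1.80 and 1.79 on the log2 scale. The 4 that rose, named after their values were seen, were Ifitm1, Ifitm2, Ifitm6 and Gbp7. Ifitm1 stood at 9.21 ± 1.45 CPM in conditioned medium and 3.09 ± 0.0748 CPM untreated, and Ifitm2 at 370.3 ± 25.7 CPM in conditioned medium and 194 ± 17.7 CPM untreated. Their relative Ifitm3, which like them encodes a membrane protein that hinders virus entry, had a log2 fold change of 0.045 (adjusted p = 0.831). Of 21 tested paralogs and relatives of the set, 10 fell and 2 rose (12 and 2 with the replicate block), with Oas1g lower by 1.04 on the log2 scale.

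**Figure D4:**
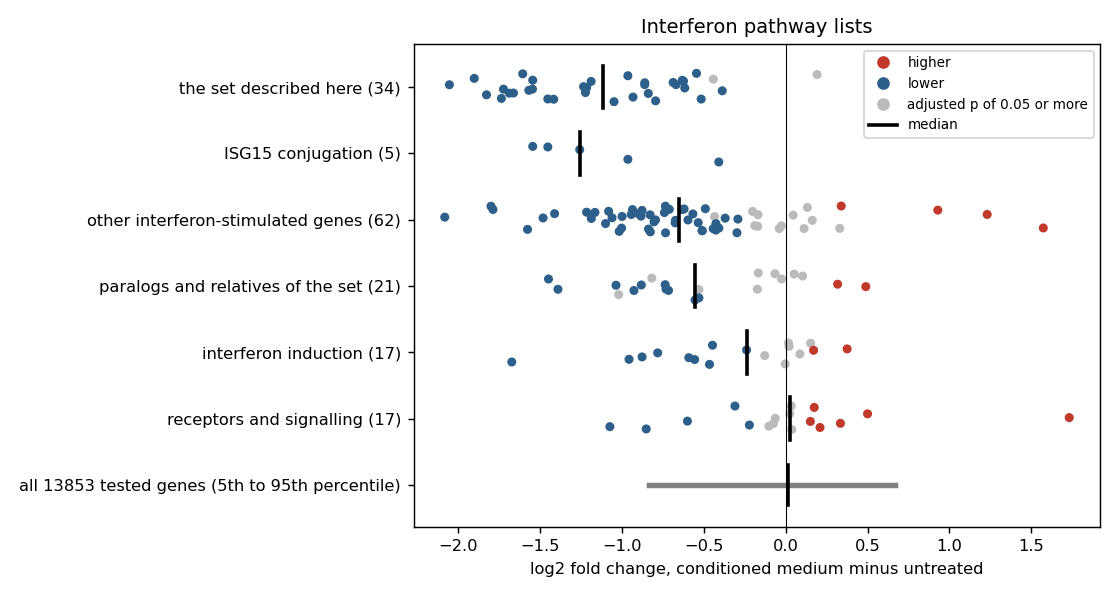
Log2 fold change of each tested gene (1 point per gene, blue for lower, red for higher, grey for an adjusted p of 0.05 or more) in the set and in 5 lists of the interferon pathway, with black bars at the medians and, for all 13853 tested genes, a grey bar from -0.83 to 0.67. The set has its median at -1.12, the other interferon-stimulated genes at -0.65 and the receptors and signalling genes at 0.025. Isg15, Usp18 and Herc6 are drawn both in the set and in the ISG15 conjugation list.

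Markers of some other cell types differed between the groups, and those of others overlapped. Plasmacytoid dendritic cells are known for making interferon alpha, and Bst2 of the set also marks them. Of 6 of their markers, 5 were tested and 2 fell (Ccr9 and Lag3), or 4 with the replicate block. Their summed level was 7.77, 7.26 and 3.72 CPM in conditioned medium and 13.8, 16.2 and 8.90 CPM untreated. In both groups this sum was lowest in replicate 3, where the interferon-stimulated genes were highest. The same held for the sums of conventional dendritic cell, B cell, and mast cell and basophil markers, given below as ranges. Neutrophil, T and NK cell, carcinoma and erythroid sums were not lowest there in both groups. The macrophage sum was highest in replicate 3 of both groups. Of 6 conventional dendritic cell markers 3 fell, with a summed level of 4.17 to 5.58 CPM in conditioned medium and 7.06 to 10.4 CPM untreated. Mast cells and basophils had 4 of 5 markers lower, with sums of 3.99 to 7.91 CPM in conditioned medium and 12.2 to 14.2 CPM untreated. Of 7 neutrophil markers 1 fell and 0 rose by edgeR's test (3 higher at an unadjusted p under 0.05), or 2 fell and 4 rose with the replicate block, with sums of 432 to 511 CPM in conditioned medium and 346 to 499 CPM untreated. Of 4 B cell markers 1 fell, with sums of 10.2 to 15.7 CPM in conditioned medium and 13.2 to 16.1 CPM untreated. Of 2 tested T and NK cell markers 0 fell by edgeR's test (2 at an unadjusted p under 0.05) and 1 with the replicate block, and the sums of all 7 were 0.820 to 0.985 CPM in conditioned medium and 1.24 to 2.15 CPM untreated. Epithelial carcinoma markers summed to 0.585 to 1.41 CPM in conditioned medium and 0.794 to 1.20 CPM untreated, and erythroid ones to at most 0.344 CPM, with Hbb-bs and Hbb-bt at 0. None of the other markers was at 0 in all libraries, and the part of these cells in the fall of the set was not tested.

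**Figure D5:**
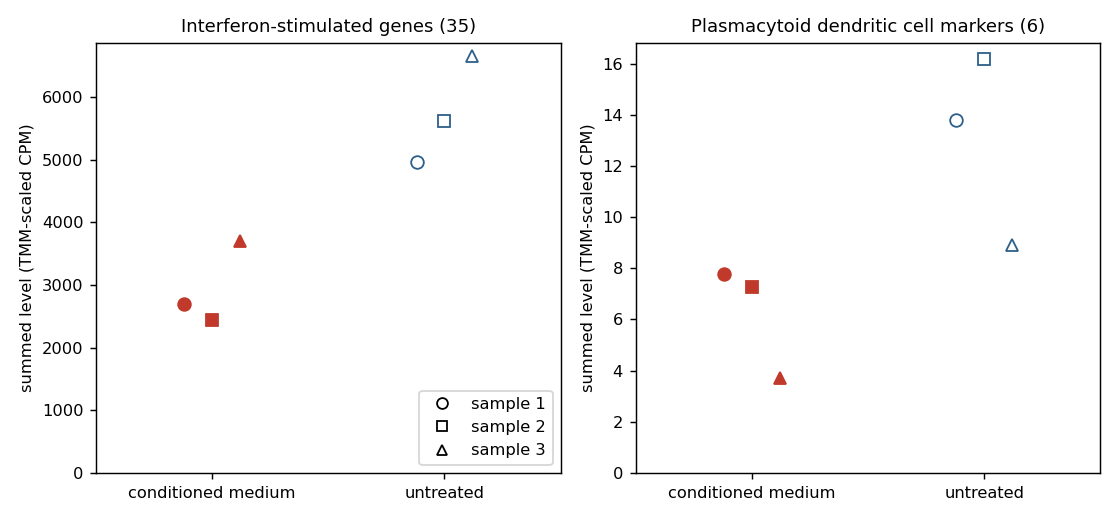
Summed level in each sample, in TMM-scaled CPM on axes that start at 0, of the 35 interferon-stimulated genes (left) and of 6 plasmacytoid dendritic cell markers (right), with conditioned medium left of untreated and 1 symbol shape per sample number. The set sums to 2435 to 3696 CPM in conditioned medium and 4958 to 6659 CPM untreated, and replicate 3 of each group is the highest sample on the left and the lowest on the right. Replicate 3 of each group was also lowest for the conventional dendritic cell, B cell, and mast cell and basophil sums, which are not drawn.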

How the data were processed

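The authors deposited 1 table of whole-number counts per gene for 6 libraries. The submitters' processing notes name HISAT2, featureCounts and the build GRCm38. Their versions, whether strand was used and what became of multi-mapping reads were not given in the sources used here. Symbols came from GENCODE M21, which matched 55240 of 55421 identifiers. The unmatched ones hold 0.0017% of counts.

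Genes were kept by filterByExpr, libraries scaled by TMM, and a model with the group alone was tested by edgeR's quasi-likelihood method (edgeR 4.0.16 in R 4.3.3, with limma 3.58.1), with Benjamini-Hochberg adjustment over 13853 genes and a threshold of 0.05. Standard errors were derived from the F statistic. Before use, the fits were tried on simulated counts in which 200 genes were changed. DESeq2 1.42.0 and the other alternatives are given in the closing section.

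The gene set, the lists and the tests were chosen with earlier results of these data known. Values in every sample are given for the 14 largest and the 4 smallest changes of the set and for genes not past the threshold; other lists give genes from among their 3 largest changes (not every one is reported here), and a few further genes were named after their values were seen. No symbol match was found for Herc5 and Mnda of those lists. Mb21d1 and Sting1 were matched only under their other names, Cgas and Tmem173.

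Both groups use the same replicate numbers, whose meaning the labels leave unsaid. Deviations from the group means over 13853 genes had a correlation of 0.328, 0.161 and 0.309 between samples of the same number, and of -0.289 to 0.0112 between other samples, so the numbers were taken to pair the samples. The fit with the number as a block is given beside the genes of the set whose call it changes and beside the lists whose counts it changes. All other standard errors and adjusted p-values come from the model with the group alone, which leaves this pairing out. With the block the SE was 0.078 instead of 0.21 for Ifit3b and 0.060 instead of 0.48 for Dtx3l.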

Additional observations from a re-analysis of the deposited data

How the results depend on the processing

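The 34 tested genes kept the direction of their change under RLE scaling, no scaling beyond the library total, DESeq2, a cutoff of 1 CPM on the mean, no low-count filter, the replicate block, without both samples numbered 3 and without each library in turn. The count of lower genes of the set, 32, was 30 with DESeq2, 33 with the replicate block and 30 to 32 without 1 library; the calls that changed were those of Oas2, Ifi27l2a and Dtx3l. The count of higher genes, 0 with edgeR and 0 with DESeq2, was 1 at an unadjusted p under 0.05, and became 1 with no scaling, with no filter and with the replicate block, each time Ifi27. The replicate block changed the calls of Dtx3l and Ifi27 and no other call of the set. Beyond 1.5-fold, glmTreat called 13 genes of the set, against 22 with no filter, 24 with the replicate block, 27 without both samples numbered 3 and 6 to 28 without 1 library; the cause was not tested. Over all tested genes, 2112 were lower and 1749 higher, with 2656 higher without scaling beyond the library total, where the median of all genes was 0.070 instead of 0.013, and 1146 to 1653 higher without 1 library. With the replicate block 2668 were lower and 2355 higher. The interferon genes themselves are too scarce at this depth to compare.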
